A study of Mus musculus with 6 samples.

Results

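The acute-phase and IL-6 family response was followed through 10 genes in healing Achilles tendon. They are 4 secreted effectors (*Saa3*, *Hp*, *Slpi* and *Lcn2*), 3 cytokines (*Il6*, *Il11* and *Lif*) and 3 receptor chains (*Il6st*, *Il11ra1* and *Osmr*), taken by symbol as 10 of the 33696 genes of the count matrices. The genes were chosen by their CPM in these same libraries, with earlier results known, so their levels are a description and carry no test. Cells came from *Gli1-CreERT2*; Ai9 reporter mice given tamoxifen, which switches on tdTomato in cells that use the *Gli1* promoter at that time and in their progeny. The label therefore marks a lineage, not a present *Gli1* transcript, which in the *Pdgfra* cells read below was at 15.0, 1.91 and 3.72 CPM in *Gli1*+ libraries of uninjured, 7 dpi and 21 dpi tendon and at 8.96, 2.50 and 4.12 CPM in *Gli1*- libraries. The Achilles tendon of injured mice was clamped repeatedly and cut (tenotomy). Cells of uninjured tendon and of tendon at 7 and 21 days post injury (dpi) were split by flow sorting for tdTomato into *Gli1*+ and *Gli1*- fractions, giving 6 libraries, 1 per condition. By the study's account each time point pooled the cells of 8 of its 24 mice, and cells were not assigned to single mice here. Uninjured mice carried the same alleles and were labelled as tamoxifen-induced as well, and the age of the mice is not given in the sources used here.

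Acute-phase proteins are secreted in inflammation and are best known from the liver, although fibroblasts and epithelia also make several of them. Cytokines of the IL-6 family bind a receptor chain of their own, such as the IL-11 receptor encoded by *Il11ra1*, and then signal through the shared chain gp130, encoded by *Il6st*, to the kinases of the JAK family and the factor STAT3. Oncostatin M uses the receptor chain encoded by *Osmr* together with gp130, and *Il11* and *Lif* belong to the same family of ligands.

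Expression was read as unique molecular identifiers (UMIs), which count captured transcripts, and a level is the summed UMIs of a gene per 1000000 UMIs (CPM) of the same cells. Values in parentheses after a level, a log2 ratio or a share are 95% intervals, exact Poisson for levels, exact binomial for ratios and Clopper-Pearson for shares. They cover counting error only, since 1 library per condition leaves no spread between mice and no test between conditions was run. Unless another population is named, levels are those of cells with at least 1 UMI of *Pdgfra*, the receptor gene that marks mesenchymal cells. There were 1774, 4790 and 5255 such *Gli1*+ cells and 5108, 6581 and 5529 such *Gli1*- cells in the order uninjured, 7 dpi and 21 dpi, an order kept throughout. The median cell held 9071.5, 10580.5 and 9659 UMIs among *Gli1*+ and 5944, 11934 and 9459 UMIs among *Gli1*- cells. The summed level of 6 mesenchymal markers lay between 25931 and 37546 CPM in these cells.

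Several libraries stood apart before any member was read. The library labelled *Gli1*+ uninjured held 2998 cells of the T cell list, 354 of the myeloid list and 41 of the neutrophil list, whereas the other libraries held at most 1 T cell list cell, no myeloid list cell and 1 to 14 neutrophil list cells, counted by the marker rule with the share limit given later. Keratin RNA was found in nearly every cell of the *Gli1*+ 7 dpi library, where 99.4% of the *Pdgfra* cells had a *Krt14* UMI against 0% to 48.2% in the others. Sex differed with time although the labels state equal numbers of both sexes. UMIs of Y-linked genes without *Xist* were found in 77.1% and 77.5% of the *Pdgfra* cells at 7 dpi and in 72.1% of those of *Gli1*- uninjured tendon, whereas *Xist* without Y-linked UMIs was found in 94.4% and 94.9% at 21 dpi, so that time and sex cannot be told apart for 21 dpi over 7 dpi and for *Gli1*- cells at 21 dpi over uninjured tendon. *Gli1*+ uninjured tendon held both kinds, 63.6% with *Xist* and 23.1% with Y-linked UMIs, which let *Gli1*+ ratios be taken within cells of 1 sex. *Xist* alone was found in 0% of the *Gli1*- uninjured *Pdgfra* cells, and *Cntn5* was at 2.71 CPM in *Gli1*+ and 491 CPM in *Gli1*- uninjured tendon. These values go against a common pool of mice for the uninjured sorts, so that there the sort cannot be told apart from sex and from the mice. *Cntn5* was at 158 (*Gli1*+) and 184 CPM (*Gli1*-) at 7 dpi and at 0.26 and 0.34 CPM at 21 dpi. It thus differed between times as well, and ratios held to 1 sex do not hold the pool of mice. Any pair of libraries shared 15 to 32 cell barcodes, at most 0.354% of the smaller library.

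The promoters of 4 members whose levels are described most closely below are shown for context, since 3 of them are effectors and the fourth is the cytokine that gives the family its name. The sequences are the 250 bases before the start of the transcript taken for each gene from RefSeq on build GRCm38.p6, which is the mm10 assembly named in the submitters' processing notes. Capitals mark matches to 2 motifs, the C/EBP motif TTNNGNAA on either strand and, in *Il6*, the NF-kB consensus. The windows are chr7:46715677-46715926 on the minus strand for *Saa3*, chr2:164356508-164356757 (minus) for *Slpi*, chr2:32387740-32387989 (minus) for *Lcn2* and chr5:30012864-30013113 (plus) for *Il6*.
Saa3: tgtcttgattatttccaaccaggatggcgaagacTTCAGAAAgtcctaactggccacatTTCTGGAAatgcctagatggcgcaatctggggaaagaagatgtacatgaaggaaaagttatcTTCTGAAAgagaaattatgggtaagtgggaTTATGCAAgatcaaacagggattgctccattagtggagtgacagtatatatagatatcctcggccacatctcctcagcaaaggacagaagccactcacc
Slpi: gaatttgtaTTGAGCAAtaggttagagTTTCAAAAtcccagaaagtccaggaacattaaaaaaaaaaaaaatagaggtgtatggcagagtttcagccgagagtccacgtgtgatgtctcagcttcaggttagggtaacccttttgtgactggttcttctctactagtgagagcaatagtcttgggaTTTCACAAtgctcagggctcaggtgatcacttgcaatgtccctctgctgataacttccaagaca
Lcn2: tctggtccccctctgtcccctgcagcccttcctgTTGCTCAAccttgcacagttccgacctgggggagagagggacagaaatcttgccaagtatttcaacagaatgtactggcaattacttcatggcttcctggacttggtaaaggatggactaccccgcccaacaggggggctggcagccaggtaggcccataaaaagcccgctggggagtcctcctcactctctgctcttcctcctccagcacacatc
Il6: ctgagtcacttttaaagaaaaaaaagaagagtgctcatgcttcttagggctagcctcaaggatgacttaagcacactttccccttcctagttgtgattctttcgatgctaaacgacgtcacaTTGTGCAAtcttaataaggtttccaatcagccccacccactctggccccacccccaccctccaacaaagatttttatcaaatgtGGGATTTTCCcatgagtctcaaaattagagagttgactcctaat
The *Saa3* window held 4 C/EBP matches, starting at -216, -191, -129 and -99 from the transcript start, the *Slpi* window held 3 and the *Lcn2* window 1. *Il6* held 1 C/EBP match at -128 and 1 NF-kB match at -44. Over windows that run from 250 bases before to 50 bases after the start, 40.7% of 32851 RefSeq promoters held a C/EBP match, 8.46% an NF-kB match and 8.3% a match to the STAT motif TTCNNNGAA, which no member held. *Lif* had 1 NF-kB match at -178, and *Il11*, *Il6st*, *Il11ra1* and *Osmr* had no match to any of the 3 motifs. A match is a run of letters and not a shown binding site, and 9 of the 10 members had an entry.

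Across the 10 members, all of which passed the minimum of 20 UMIs over the 6 libraries, 6 were at least 2-fold higher than in uninjured tendon in *Gli1*+ cells at 7 dpi and 7 at 21 dpi. In *Gli1*- cells the counts were 5 and 6. Among all 20914 genes past this minimum, 13.8% and 8.06% reached 2-fold higher in *Gli1*+ cells at 7 and 21 dpi, and 15.2% and 14.6% did so in *Gli1*- cells. The median log2 ratio of the members was 1.65 and 2.29 for the *Gli1*+ and 1.66 and 2.39 for the *Gli1*- comparisons, beside -0.20, -0.38, -0.07 and -0.11 over all genes. Since the members were picked for such values, nothing is read from these counts. The 7 and 21 dpi comparisons of a sort share its uninjured library, while the *Gli1*+ and *Gli1*- comparisons share none. *Saa3*, *Hp*, *Slpi*, *Il11* and *Lif* were the 5 members at 2-fold or more in both sorts at 7 dpi, where 8.56% of all genes were. In the 316 *Gli1*+ *Pdgfra* cells left at 7 dpi without 3 markers of another list, however, *Il11* turned to a log2 ratio of -0.21. That value rests on very few UMIs. At 21 dpi *Lcn2* joined these 5 members, against 5.82% of all genes. The only member at least 2-fold lower in any of these comparisons was *Osmr* in *Gli1*- cells at 7 dpi, where 17.7% of all genes were lower, beside 23.8% and 26% in *Gli1*+ cells at 7 and 21 dpi and 18.8% in *Gli1*- cells at 21 dpi. Between sorts, uninjured *Gli1*+ cells were 2-fold or more above *Gli1*- cells in *Slpi* (17.6% of all genes) and below them in *Saa3*, *Hp*, *Lcn2* and *Il6* (6.46%), a comparison in which sort and sex differ together. No member differed 2-fold between sorts after injury, where 7.09% of all genes were higher and 3.6% lower in *Gli1*+ cells at 7 dpi and 4.25% and 5.46% at 21 dpi.

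**Figure D1:**
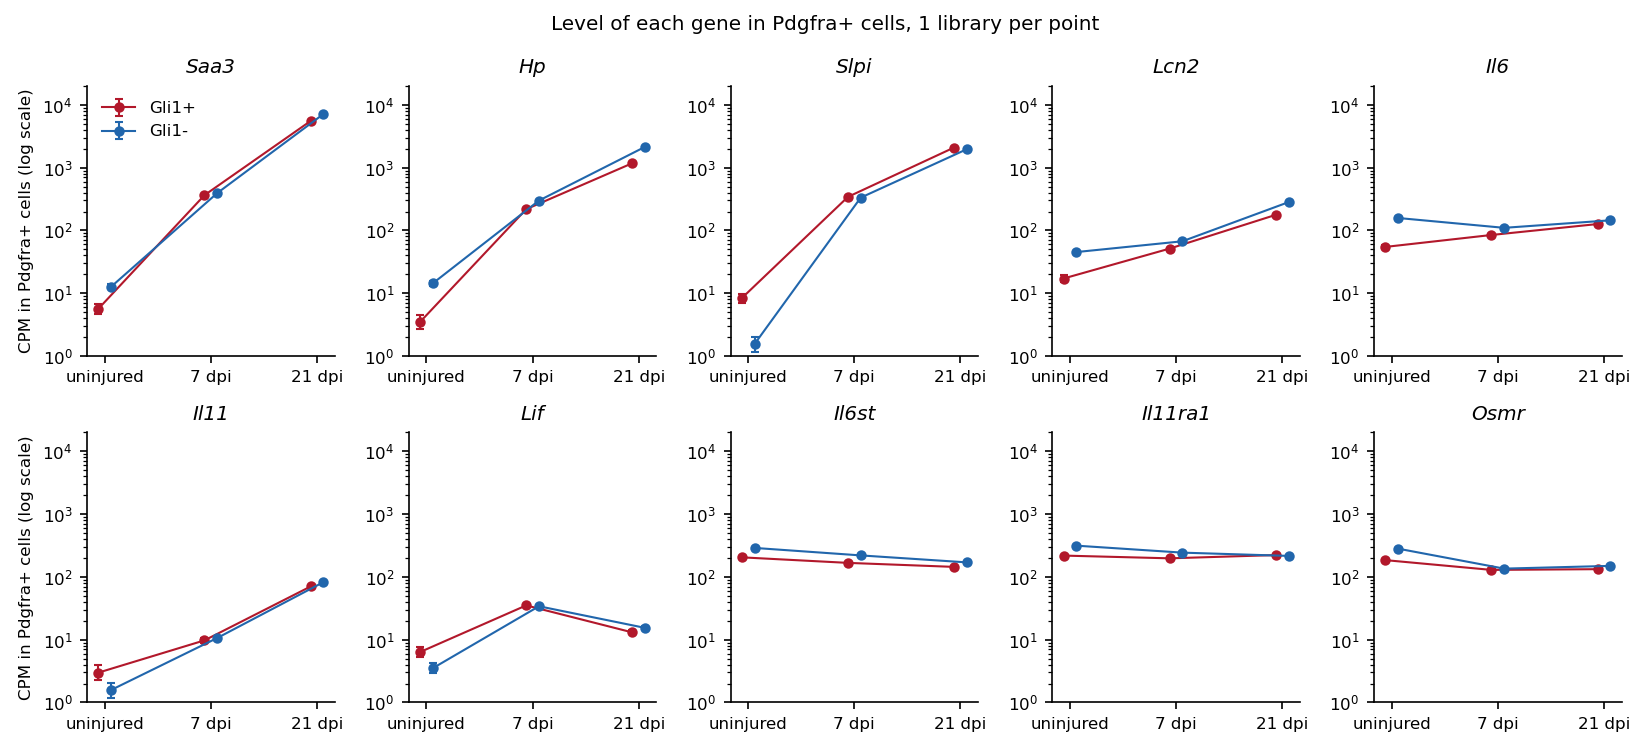
Level of each of the 10 members in *Pdgfra* cells (CPM, log scale) against time after injury, *Gli1*+ and *Gli1*- libraries in separate colours, with bars for the exact Poisson 95% interval. *Saa3*, *Hp* and *Slpi* climb over both steps in either sort, *Lif* peaks at 7 dpi, and the 3 receptor chains stay between 129 and 315 CPM.

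*Saa3*, serum amyloid A 3, an acute-phase apolipoprotein made outside the liver, was scarce before injury and abundant at 21 dpi (ENSMUSG00000040026, chr7:46711998-46719615). Its level was 5.63 (4.59 to 6.84), 364 (359 to 370) and 5540 (5520 to 5559) CPM in *Gli1*+ cells and 12.6 (11.5 to 13.9), 393 (389 to 397) and 7138 (7117 to 7160) CPM in *Gli1*- cells. Levels of the 3 time points were apart in either sort and differed most between 7 and 21 dpi in absolute terms. For *Gli1*+ cells the log2 ratio over uninjured tendon was 6.02 (5.74 to 6.31) at 7 dpi, followed by 9.94 (9.66 to 10.24) at 21 dpi. For *Gli1*- cells it was 4.96 (4.82 to 5.10), followed by 9.14 (9.0 to 9.28). The uninjured values rest on few cells, with 102 UMIs in 21 *Gli1*+ cells and 425 UMIs in 54 *Gli1*- cells, among them a single cell with 116. In cells with Y-linked UMIs alone, where sex is held, the log2 ratio at 7 dpi was 5.47 in *Gli1*- cells and 9.62 in *Gli1*+ cells, the last on 2 UMIs in 410 uninjured cells, and in cells with *Xist* alone it was 9.45 in *Gli1*+ cells at 21 dpi. *Saa1* and *Saa2*, relatives of *Saa3*, stayed at or under 25.2 CPM in every library. Whether reads are shared among these related genes was not examined.

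*Hp* encodes haptoglobin, which binds free hemoglobin (ENSMUSG00000031722, chr8:109575128-109579172). It stood at 3.48 (2.67 to 4.45), 218 (214 to 222) and 1178 (1170 to 1187) CPM in *Gli1*+ cells and at 14.3 (13.1 to 15.7), 299 (295 to 302.5) and 2148 (2136 to 2160) CPM in *Gli1*- cells. *Gli1*- cells were the higher of the sorts at each time, by 4.12-fold in uninjured tendon, 1.37-fold at 7 dpi and 1.82-fold at 21 dpi. Its log2 ratios over uninjured tendon were 5.97 (5.61 to 6.35) and 8.40 (8.05 to 8.78) for the *Gli1*+ sort, against 4.38 (4.25 to 4.51) and 7.23 (7.10 to 7.36) for the *Gli1*- sort. Held to cells with *Xist* alone, the *Gli1*+ ratio at 21 dpi was 9.94, on 14 UMIs in 1128 cells of uninjured tendon. The 410 uninjured *Gli1*+ cells with Y-linked UMIs alone held more *Hp*, with 25 UMIs.

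*Slpi* encodes secretory leukocyte peptidase inhibitor, which blocks neutrophil elastase and related proteases (ENSMUSG00000017002, chr2:164354070-164356507). Its level was 8.34 (7.06 to 9.78), 342 (337 to 347) and 2093 (2081 to 2105) CPM in *Gli1*+ cells and 1.55 (1.16 to 2.03), 332 (328.5 to 336) and 1968 (1956 to 1979) CPM in *Gli1*- cells. The sorts differed 5.39-fold in uninjured tendon, with *Gli1*+ the higher, but only 1.03-fold at 7 dpi and 1.06-fold at 21 dpi. *Slpi* was the member with the largest ratio in *Gli1*- cells at both times, at 7.75 (7.36 to 8.17) and 10.31 (9.92 to 10.73) on the log2 scale, beside 5.36 (5.13 to 5.60) and 7.97 (7.74 to 8.21) in *Gli1*+ cells. Only 52 UMIs stand behind the uninjured *Gli1*- value.

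*Lcn2* encodes lipocalin 2, which withholds iron from bacteria by binding their siderophores (ENSMUSG00000026822, chr2:32384637-32387739). It was at 17.1 (15.3 to 19.1), 51.3 (49.5 to 53.2) and 177 (174 to 180.5) CPM in *Gli1*+ cells and at 45.2 (42.9 to 47.5), 67.1 (65.4 to 68.9) and 282 (278 to 286) CPM in *Gli1*- cells. The larger step came between 7 and 21 dpi in either sort. Over uninjured tendon the log2 ratio was 1.58 (1.41 to 1.76) and 3.37 (3.21 to 3.54) for the *Gli1*+ sort, against 0.57 (0.49 to 0.65) and 2.64 (2.57 to 2.72) for the *Gli1*- sort, so that the 7 dpi value of *Gli1*- cells stayed short of 2-fold.

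Uninjured tendon gave these effectors to other cells in the *Gli1*+ library. Only 12.5% of its *Hp*, 8.98% of its *Slpi* and 9.35% of its *Lcn2* UMIs lay in *Pdgfra* cells. The 41 neutrophil list cells held 404 of its 505 *Hp* UMIs, 909 of 1682 *Slpi* UMIs and 2542 of 3315 *Lcn2* UMIs, but none of its 138 *Saa3* UMIs, of which 73.9% lay in *Pdgfra* cells. None of the effectors was used to mark neutrophils. After injury neutrophil list cells held at most 0.662% of the UMIs of any effector, and *Pdgfra* cells held 70.7% to 92.9%. Over all kept cells of the *Gli1*+ libraries *Lcn2* was thus at 51.8, 42.1 and 146 CPM, with no higher value at 7 dpi than before injury. Within *Pdgfra* cells the 7 neutrophil markers summed to 21.9, 80.3 and 45.3 CPM for *Gli1*+, against 4.55, 15.8 and 22.9 CPM for *Gli1*- libraries, with 1 of the 7 at 0 in *Gli1*+ 21 dpi and in *Gli1*- uninjured and 21 dpi, and their part in these levels was not tested.

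*Il6* (ENSMUSG00000025746, chr5:30013114-30019975), the cytokine that drives acute-phase genes in liver, did not follow the effectors. Its level was 54.5 (51.2 to 58.1), 84.5 (82.1 to 87.0) and 126 (123 to 129) CPM in *Gli1*+ cells, higher at each step. In *Gli1*- cells it was 158 (153.5 to 162), 110 (108 to 112) and 145 (142 to 148) CPM, highest in uninjured tendon. Over uninjured tendon the *Gli1*+ log2 ratios were 0.63 (0.53 to 0.73) and 1.21 (1.12 to 1.31), whereas the *Gli1*- ratios were -0.52 (-0.57 to -0.47) and -0.12 (-0.17 to -0.07), the last being 0.01 with TMM scaling. Before injury *Gli1*- cells held 2.89-fold more *Il6* than *Gli1*+ cells, and at 7 and 21 dpi 1.3-fold and 1.15-fold more. The same uninjured *Gli1*- cells also held *Junb* at 5132, *Cebpd* at 3391 and *Socs3* at 2232 CPM, all above their values in the other 5 libraries, and the part of this state of the cells in the *Il6* value was not tested. With Y-linked cells alone the *Il6* ratio at 7 dpi was 0.95 in *Gli1*+ and -0.58 in *Gli1*- cells.

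*Il11*, a cytokine of fibroblasts known from fibrosis and bone turnover (ENSMUSG00000004371, chr7:4772373-4782907), was at 2.98 (2.24 to 3.89), 9.75 (8.94 to 10.6) and 70.4 (68.2 to 72.6) CPM in *Gli1*+ cells. In *Gli1*- cells it was at 1.58 (1.18 to 2.06), 10.6 (9.94 to 11.3) and 82.4 (80.1 to 84.7) CPM. The level of either sort at 21 dpi thus stood far above both earlier ones, and the uninjured values rest on 54 and 53 UMIs. At 7 dpi 1 cell held 131 of the 540 *Gli1*+ UMIs, and 1 cell held 97 of the 898 *Gli1*- UMIs. The top 1% of cells then held 72% and 70.7% of the UMIs, a concentration that the intervals do not cover. With cells of another list left out, the *Gli1*+ log2 ratio at 7 dpi was -0.21 by the rule of 3 markers and 1.80 by the share limit, which was added after seeing the data. Among the cells left by 3 markers, the 156 in the *Pi16* or *Dpp4* gate described below held 3 *Il11* UMIs. The 54 outside every gate held 1, so the value of -0.21 rests on very few UMIs. The log2 ratio of 21 dpi over 7 dpi was 2.85 in *Gli1*+ and 2.96 in *Gli1*- cells.

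*Lif*, encoding leukemia inhibitory factor (ENSMUSG00000034394, chr11:4257568-4272514), was the one member that was higher at 7 dpi than at both other times in either sort. It was at 6.35 (5.24 to 7.62), 35.2 (33.6 to 36.8) and 13.1 (12.1 to 14.0) CPM in *Gli1*+ cells and at 3.51 (2.91 to 4.20), 34.1 (32.8 to 35.3) and 15.4 (14.4 to 16.4) CPM in *Gli1*- cells. From 7 to 21 dpi the log2 ratio was -1.43 in *Gli1*+ and -1.15 in *Gli1*- cells, where 15.5% and 9.81% of all genes were 2-fold lower. *Saa3*, *Hp*, *Slpi*, *Lcn2* and *Il11* were 2-fold or more higher over the same step in both sorts, as were 6.08% and 8.13% of all genes. The 7 dpi libraries come from cells with Y-linked and the 21 dpi libraries from cells with *Xist* UMIs, so this step cannot be told apart from sex. The *Gli1*+ ratio of *Lif* over uninjured tendon at 21 dpi, 1.04 (0.75 to 1.33) on the log2 scale, was under 2-fold without filters, without doublet removal and over all kept cells, and by the mean of the cells' own CPM.

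In *Pdgfra* cells the receptor chains were mostly lower after injury. *Il6st* (ENSMUSG00000021756, chr13:112464070-112506860) was at 205 (198 to 212), 167 (164 to 171) and 144 (141 to 147.5) CPM in *Gli1*+ and at 290 (284 to 295), 220 (217 to 223) and 170 (167 to 174) CPM in *Gli1*- cells, lower at each step. *Osmr* (ENSMUSG00000022146, chr15:6813568-6874968) was at 185 (179 to 191), 129 (126 to 132) and 133 (130 to 136) CPM in *Gli1*+ and at 282 (276 to 288), 135.5 (133.0 to 138.0) and 150 (147 to 153) CPM in *Gli1*- cells. *Il11ra1* (ENSMUSG00000073889, chr4:41760443-41769473) was at 219 (212 to 225.5), 198 (194 to 201.5) and 223 (219 to 227) CPM in *Gli1*+ and at 315 (309 to 321), 244 (240 to 247) and 216 (212 to 220) CPM in *Gli1*- cells. Uninjured *Gli1*- cells held the highest level of all 3. The lowest ratio was that of *Osmr* in *Gli1*- cells at 7 dpi, at -1.06 (-1.10 to -1.02) on the log2 scale, and *Il11ra1* in *Gli1*+ cells at 21 dpi, at 0.03 (-0.02 to 0.08), could not be told from its uninjured level at this depth. With TMM scaling, which assumes that most genes do not change, the *Gli1*+ ratios of *Il6st* were -0.06 and -0.13, those of *Osmr* -0.28 and -0.10, and *Il11ra1* turned to 0.09 and 0.40. *Il11ra1* also changed sign in the 316 *Gli1*+ cells left at 7 dpi without 3 markers of another list. Over all kept cells of the *Gli1*+ libraries all 3 were higher after injury, with log2 ratios at 7 and 21 dpi of 0.16 and 0.13 for *Il6st*, 0.73 and 0.92 for *Il11ra1* and 0.34 and 0.60 for *Osmr*. The T cell list cells counted above are part of that uninjured library, and their part in these ratios was not tested.

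**Figure D2:**
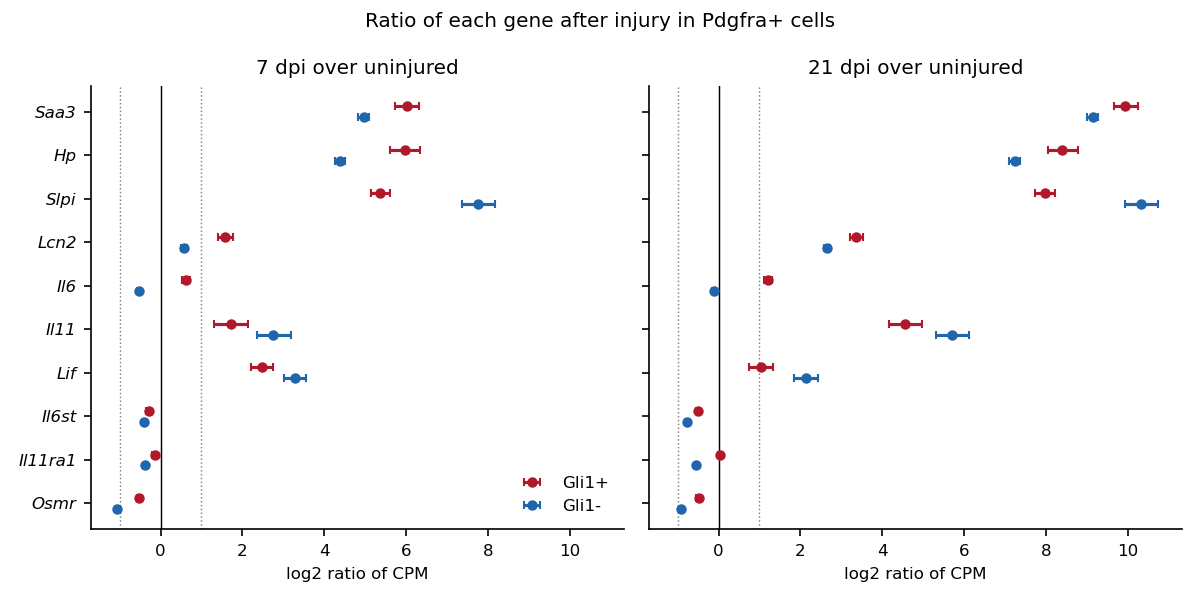
Log2 ratio of each member over the uninjured library of the same sort in *Pdgfra* cells at 7 and 21 dpi, with exact binomial 95% intervals and dotted lines at 2-fold higher and lower. *Saa3*, *Hp* and *Slpi* lie far to the higher side in every comparison, whereas *Il6* lies on the higher side in *Gli1*+ and on the lower side in *Gli1*- cells, the latter at 0.01 with TMM scaling at 21 dpi.

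Levels were next compared among kinds of cells, set by marker genes and not by clusters. Cells of another type have 3 or more markers of a list, and the *Pdgfra* cells of no such list were split by gates on a few genes, which name ranges and not cell types. Each cell went to the first gate it met, in the order *Col2a1*, *Bglap* or *Ibsp*, *Scx* with *Fmod*, *Pi16* or *Dpp4*, *Tppp3* with *Ly6a*, cycling genes and *Tnn*. *Tnn* cells thus have a UMI of *Tnn*, a matrix gene of tendon and bone repair, and met no earlier gate. By 3 markers alone 8037 of the 9250 kept cells of the *Gli1*+ 7 dpi library counted as epidermal. A limit on the share of list UMIs was therefore added after seeing the data (at least 1% of a cell's UMIs for the epidermal list and 0.1% for the others), and values by kind of cell use it. Where the rule of 3 markers alone, chosen first, moved a value by over 1.5 times, its value is given too. *Saa3* at 21 dpi was highest in the *Tnn* cells, at 12697.6 (12607.5 to 12788.1) CPM in 437 *Gli1*+ cells and 16225.4 (16118.2 to 16333.2) CPM in 374 *Gli1*- cells. Cells with *Tppp3* and *Ly6a* had 8209 and 9875 CPM. Cells of the *Bglap* or *Ibsp* gate, only 58 and 82 in number, had 8010 and 7260 CPM. Cells with *Scx* and at least 5 *Fmod* UMIs had 6150 and 6291 CPM. Cells with *Pi16* or *Dpp4*, genes of adventitial fibroblasts, were lower at 3001 and 4788 CPM but formed the largest range, with 2439 and 2721 cells. At 7 dpi the order was different. Cells with *Scx* and *Fmod* led in the *Gli1*+ library at 606 (585 to 628) CPM and cells with *Pi16* or *Dpp4* in the *Gli1*- library at 480 (474 to 487) CPM, while *Tnn* cells had 340 and 414 CPM. Of the 325 *Gli1*+ cells with *Scx* and *Fmod*, 8 had 100 or more *Saa3* UMIs, so their lead can rest on few cells. By 3 markers alone the *Gli1*+ library had under 50 cells with *Scx* and *Fmod*, too few for a level. Its 156 cells with *Pi16* or *Dpp4* then had 476 CPM.

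Outside the mesenchyme *Saa3* at 21 dpi was lower in endothelial and in pericyte or smooth muscle list cells by either rule, but by how much depended on the rule. Endothelial list cells held 103 (88.7 to 118) CPM in the *Gli1*+ and 318 (307 to 329) CPM in the *Gli1*- library, and pericyte or smooth muscle list cells 583 (561 to 606) and 1205 (1181 to 1229) CPM. By 3 markers alone *Gli1*- endothelial list cells held 1541 CPM, and pericyte or smooth muscle list cells held 1942 (*Gli1*+) and 3918 CPM (*Gli1*-). The 138 Schwann list cells of the *Gli1*- library reached 3322 (3159 to 3491) CPM, after 66.8 CPM at 7 dpi and 0 of their UMIs in uninjured tendon, which allows a level of up to 3.06 CPM at a limit of 3 counts. *Hp* at 21 dpi was highest in cells of the *Bglap* or *Ibsp* gate, at 2721 and 4350 CPM, and in *Tnn* cells, at 2259 and 4149 CPM. In pericyte or smooth muscle list cells *Hp* reached 1387 (1352 to 1422) and 2315 (2281 to 2349) CPM, near its level in cells with *Scx* and *Fmod*, at 1674 (1650 to 1698) and 2312 (2282 to 2343) CPM. *Slpi* was far lower in pericyte or smooth muscle list cells, with 120 (110 to 131) and 160 (151.5 to 169) CPM against 3258 (3225 to 3292) and 2437 (2406 to 2468) CPM in cells with *Scx* and *Fmod*. By 3 markers alone the pericyte or smooth muscle list cells held *Slpi* at 1061 and 855 CPM, still under the 3329 and 2544 CPM of cells with *Scx* and *Fmod*. Before injury they held *Hp* at 0 CPM in the *Gli1*+ library, which by the same limit allows up to 4.13 CPM, and at 5.95 CPM in the *Gli1*- library, and at 7 dpi at 40.9 and 105.5 CPM. By 3 markers alone the *Gli1*+ value before injury was 4.83 CPM and the *Gli1*- value at 7 dpi was 235 CPM.

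*Lcn2* was the effector whose endothelial level came nearest to that of *Pdgfra* cells. Endothelial list cells of uninjured tendon held 45.2 (36.0 to 56.0) CPM in the *Gli1*+ and 98.2 (92.1 to 104.7) CPM in the *Gli1*- library, above the *Pdgfra* cells of the same libraries. At 21 dpi they held 45.5 and 69.8 CPM (135 CPM in the *Gli1*- library by 3 markers alone), under the *Pdgfra* cells. Within the mesenchyme *Lcn2* was highest in *Gli1*+ cells with at least 5 UMIs of the cartilage collagen gene *Col2a1*, at 608 (573 to 645) CPM in 106 cells. In the *Gli1*- library such cells held 463 (436 to 490) CPM and *Pdgfra* cells outside every gate held 513 (494 to 532) CPM.

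**Figure D3:**
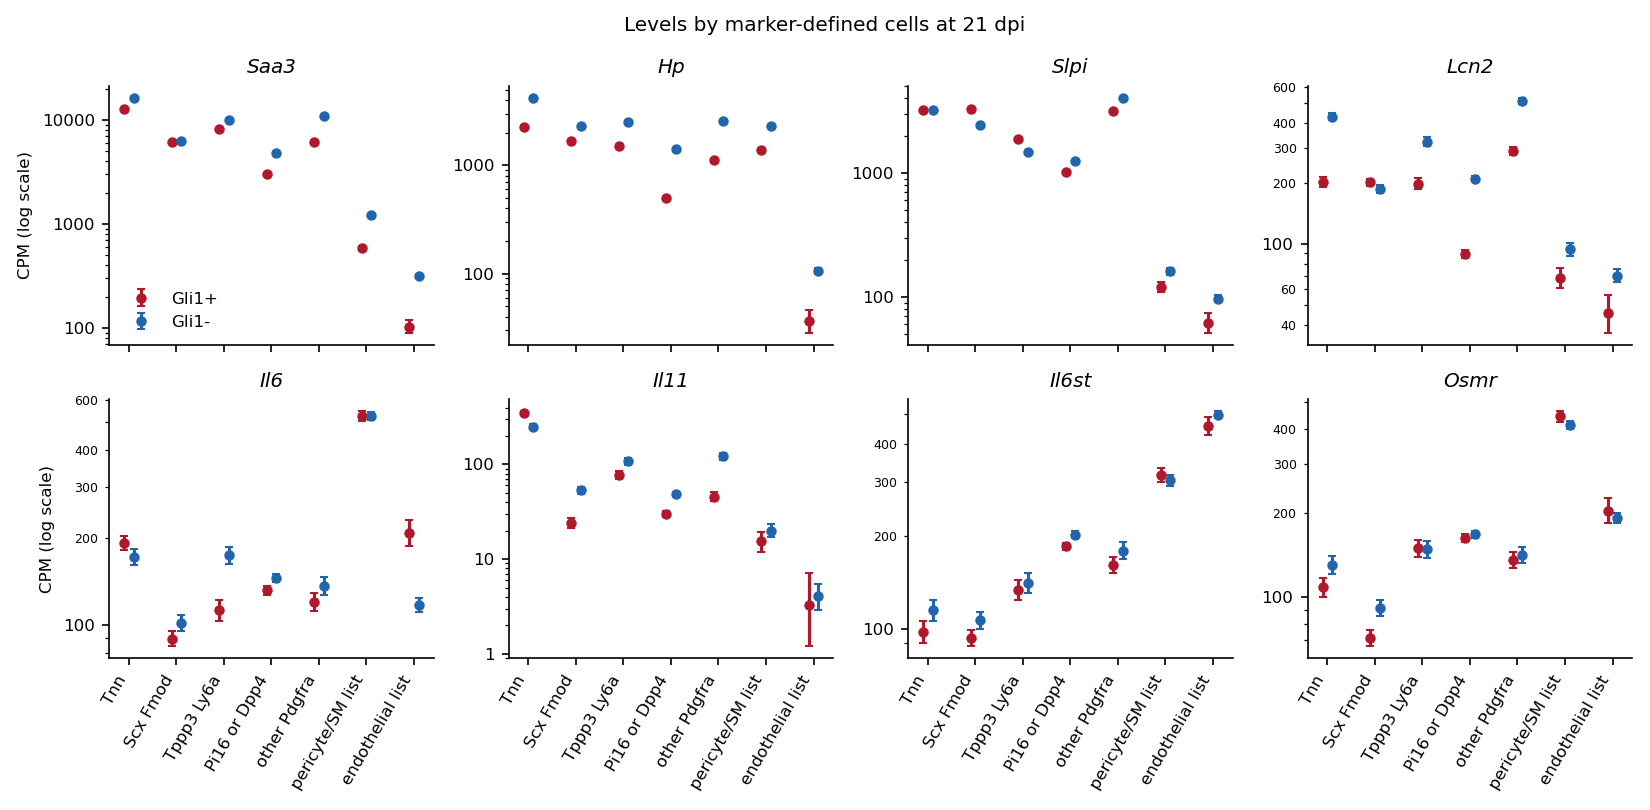
Level of 8 members at 21 dpi (CPM, log scale) in 5 ranges of *Pdgfra* cells and in pericyte or smooth muscle (SM) list and endothelial list cells, *Gli1*+ and *Gli1*- libraries in separate colours, with bars for the exact Poisson 95% interval. *Saa3* and *Il11* are highest in *Tnn* cells, *Il6* and *Osmr* in pericyte or smooth muscle list cells and *Il6st* in endothelial list cells.

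At 21 dpi *Il6* was highest in pericyte or smooth muscle list cells. In uninjured *Gli1*- tendon the *Pdgfra* cells, at 158 CPM, instead stood above both lists that follow. The lists do not leave out cells with a *Pdgfra* UMI, so they overlap with the *Pdgfra* cells. In the *Gli1*- library at 21 dpi 5293 of the 5529 *Pdgfra* cells were of no other list. Pericyte or smooth muscle list cells held 146 (119 to 176), 161 (133 to 193) and 526 (504 to 548) CPM in the *Gli1*+ libraries and 132 (117 to 148), 208 (192 to 225) and 525 (509 to 541.5) CPM in the *Gli1*- libraries. By 3 markers alone the *Gli1*- values were 152, 142 and 380 CPM, so that the 7 dpi value was not above the uninjured one, and the *Gli1*+ value at 21 dpi was 459 CPM. At 21 dpi the log2 ratio of *Gli1*+ over *Gli1*- was 0.00 (-0.07 to 0.08) with the share limit. Both sorts were then higher than in uninjured tendon, by 1.85 (1.57 to 2.14) and 1.99 (1.82 to 2.17) on the log2 scale. Endothelial list cells held 20.7, 84.4 and 208 CPM in the *Gli1*+ and 60.1, 108 and 117 CPM in the *Gli1*- libraries. The direction of *Il6* over uninjured tendon in *Gli1*- cells therefore differed among cells, since cells with *Pi16* or *Dpp4* had a log2 ratio of -0.31 (-0.38 to -0.24) at 21 dpi where endothelial list cells had 0.96 (0.82 to 1.11). Epidermal list cells of the *Gli1*+ libraries held at most 9.37 CPM, and at most 66.6 CPM by 3 markers alone.

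*Il11* at 21 dpi was concentrated in *Tnn* cells, at 352 (337 to 368) CPM in the *Gli1*+ and 251 (238 to 265) CPM in the *Gli1*- library. These 437 and 374 cells held 45.1% and 23.3% of all *Il11* UMIs of their libraries. At 7 dpi *Tnn* cells were more numerous, at 819 and 640, yet held 7.93 (6.25 to 9.92) and 15.2 (12.8 to 18.0) CPM, the latter being 4.53 CPM in the 590 cells left by 3 markers alone. *Lif* at 7 dpi was spread over the mesenchyme, from 22.1 CPM in *Gli1*+ cells outside every gate to 70.2 (61.2 to 80.1) CPM in cycling *Gli1*+ cells, with 5.39 and 5.53 CPM in endothelial list cells (18.7 CPM in the *Gli1*- library by 3 markers alone).

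Each receptor chain had its own order of cells. *Il6st* at 21 dpi was highest in endothelial list cells, at 458 (428 to 490) and 499 (485 to 513) CPM, and lowest among the larger ranges in cells with *Scx* and *Fmod*, at 93.0 (87.4 to 98.7) and 106 (99.9 to 113) CPM. *Osmr* at 21 dpi was highest in pericyte or smooth muscle list cells, at 446 and 416 CPM, where *Il6* was highest too. *Il11ra1* at 21 dpi was highest in cells with *Pi16* or *Dpp4*, at 293 (286 to 300) and 284 (277.5 to 290) CPM, and was at 115 (106 to 124) and 113 (104 to 122) CPM in the *Tnn* cells. *Pdgfra* cells outside every gate followed at 285 (272.5 to 298) and 243 (231 to 256.5) CPM, and the *Gli1*+ value lay within the counting error of the highest. Cells with *Pi16* or *Dpp4* held more *Il11ra1* at 21 dpi than before injury, 205 (196 to 214) and 262 (254 to 270.5) CPM, while cells with *Tppp3* and *Ly6a* held less, 167 and 173 CPM after 292 and 381 CPM.

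The effectors were carried by few cells. At 21 dpi the 10% of *Pdgfra* cells with most *Saa3* held 95.7% of its UMIs in the *Gli1*+ and 92.5% in the *Gli1*- library. Cells with 100 or more *Saa3* UMIs numbered 461 and 621 and held 94.1% and 94.4% of them, and a single cell reached 5977 and 7694 UMIs. At 7 dpi there were 43 and 87 such cells with 40.9% and 48.1%. The top 10% of cells held 85.2% to 96.6% of the UMIs of *Hp*, *Slpi* and *Lcn2* at 21 dpi, 69.2% and 64.9% of those of *Il6*, and 33.8% to 44.6% of those of the receptor chains. *Il11* was the most concentrated member at 21 dpi, with 79.1% and 67.7% of its UMIs in the top 1% of cells.

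**Figure D4:**
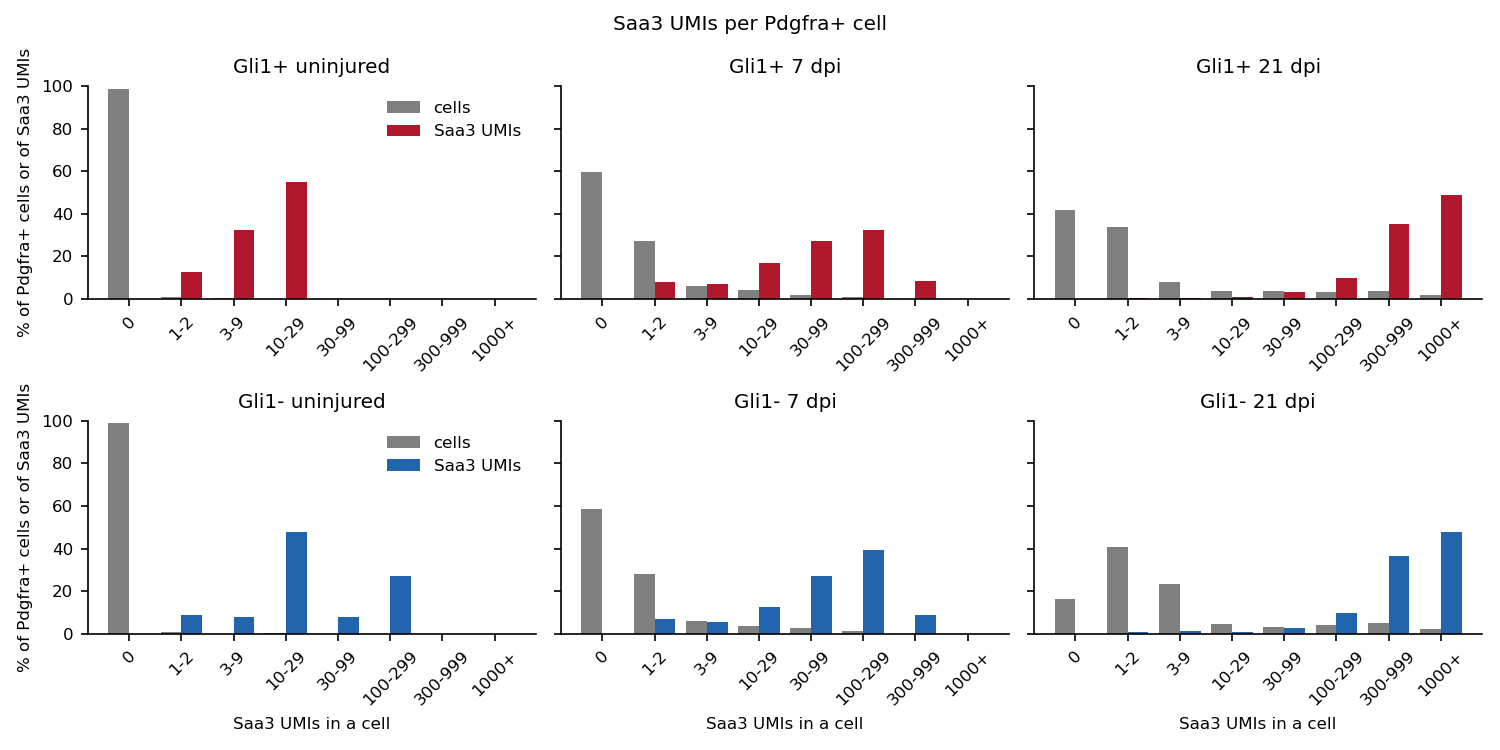
Share of *Pdgfra* cells and share of *Saa3* UMIs (both in %) by the number of *Saa3* UMIs in a cell, for the libraries of uninjured tendon, 7 dpi and 21 dpi. At 21 dpi the cells with 100 or more UMIs are 8.77% of *Gli1*+ and 11.2% of *Gli1*- cells but hold over 94% of the UMIs.

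The cells rich in *Saa3* at 21 dpi were rich in the other effectors as well. *Hp* stood at 5334 CPM in *Gli1*+ cells with 100 or more *Saa3* UMIs and at 406 CPM in the rest, and at 7898 and 667 CPM in *Gli1*- cells. *Il11* stood at 321 against 23.8 CPM and at 305 against 25.1 CPM, and *Il6* at 220 against 109 CPM and at 222.5 against 125 CPM. The receptor chains went the other way, *Il11ra1* the furthest, at 97.7 against 246 CPM and at 105 against 245 CPM. *Il6st* stood at 103 against 152 CPM and at 128 against 181 CPM, and *Osmr* at 114 against 136 CPM and at 125 against 156 CPM. The *Saa3*-rich cells were deeper, with median counts of 18792 and 18647 UMIs against 9194 and 8780, and CPM is taken over totals that include *Saa3*. Among *Tnn* cells, 27.7% (23.5 to 32.1) and 38.5% (33.5 to 43.6) had 100 or more *Saa3* UMIs, against 4.31% (3.53 to 5.19) and 6.87% (5.95 to 7.89) of cells with *Pi16* or *Dpp4*.

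Shares of cells with a UMI were read after each cell was thinned to 2000 UMIs, which left out 17, 59 and 88 *Gli1*+ and 133, 88 and 111 *Gli1*- cells. *Saa3* was found in 0.455%, 16.4% and 31.1% of *Gli1*+ *Pdgfra* cells and in 0.603%, 15.6% and 49.6% of *Gli1*- cells (1.18%, 40.2% and 58.4%, and 1.06%, 41.3% and 83.7%, without thinning). Cells of other types were taken here with the share limit as well. Endothelial list cells, with medians of 4625, 3463 and 6012.5 UMIs (*Gli1*+) and 2631, 2500 and 4267 UMIs (*Gli1*-) per cell, gave 0%, 8.99% and 20.6% and 0.276%, 9.67% and 43.5%. Schwann list cells of the *Gli1*- library gave 57.3% (46.8 to 67.3) at 21 dpi, above the *Pdgfra* cells. The share of *Gli1*- cells with a *Saa3* UMI at 21 dpi is therefore read as background and not as a share of expressing cells. *Hp* was found in 24.0% and 36.8% of *Pdgfra* cells at 21 dpi against 5.15% and 19.2% of endothelial list cells, and *Lcn2* in 7.43% (6.73 to 8.18) and 11.7% (10.9 to 12.6) against 6.01% (3.32 to 9.88) and 10.4% (8.78 to 12.2). The *Lcn2* intervals overlap, so its share could not be told from that of endothelial list cells and is not read as a share of expressing cells. Endothelial list cells held more *Lcn2* than *Pdgfra* cells before injury, so they do not measure its background alone. *Il11* was found in 2.75% and 3.65% of *Pdgfra* cells at 21 dpi and *Lif* in 4.19% and 4.68% at 7 dpi, against 0.858%, 0.938%, 1.12% and 0.820% of endothelial list cells.

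Co-detection compares the thinned *Pdgfra* cells that held a UMI of both genes of a pair with the number that the separate shares of the genes predict. Pairs of effectors were above the prediction in each of the 4 libraries after injury. The counts with *Lcn2* at 21 dpi, and those with *Saa3* in *Gli1*- cells at 21 dpi, rest on shares not read above as those of expressing cells. *Saa3* and *Hp* shared 261 *Gli1*+ cells at 7 dpi where 125 were predicted, a ratio of 2.09 (1.84 to 2.36). The ratio of this pair was 1.93 (1.74 to 2.14) in *Gli1*- cells at 7 dpi, and 1.90 (1.76 to 2.04) and 1.36 (1.28 to 1.43) in *Gli1*+ and *Gli1*- cells at 21 dpi. *Hp* and *Lcn2* gave 2.19, 1.94, 2.96 and 2.04 in the same order, and *Hp* and *Slpi* gave 1.81, 1.72, 2.0 and 1.59. With detection set at 3 or more UMIs, added after seeing the data, *Saa3* and *Hp* gave 7.84, 6.67, 4.74 and 3.64. The intervals cover counting error only, since cells of 1 library are not replicates.

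Cytokines joined the effectors unevenly, and the counts with *Lcn2* rest on a share not read above as that of expressing cells. *Lcn2* and *Il11* were found together in 46 *Gli1*+ cells at 21 dpi where 10.6 were predicted, a ratio of 4.36 (3.19 to 5.81), and in 69 *Gli1*- cells where 23.2 were predicted, a ratio of 2.98 (2.32 to 3.77). *Lcn2* and *Lif* gave 3.72 (2.30 to 5.68) and 2.85 (2.02 to 3.91) at 21 dpi. *Il6* stayed nearer to the prediction with *Saa3*, at 1.36 and 1.22 at 7 dpi and 1.16 and 1.10 at 21 dpi, and its ratios with *Lif* were 1.39, 1.28, 1.62 and 1.84. *Il11* and the gene of its own receptor chain, *Il11ra1*, were found together less often than predicted at 21 dpi. They shared 18 *Gli1*+ cells where 51 were predicted, a ratio of 0.353 (0.209 to 0.558), and 26 *Gli1*- cells where 69.3 were predicted, a ratio of 0.375 (0.245 to 0.550). With *Il6st* the ratios of *Il11* were 0.452 and 0.597, but without thinning they were 1.03 and 1.02. *Saa3* with *Osmr* lay between 0.972 and 1.05 in the 4 libraries.

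**Figure D5:**
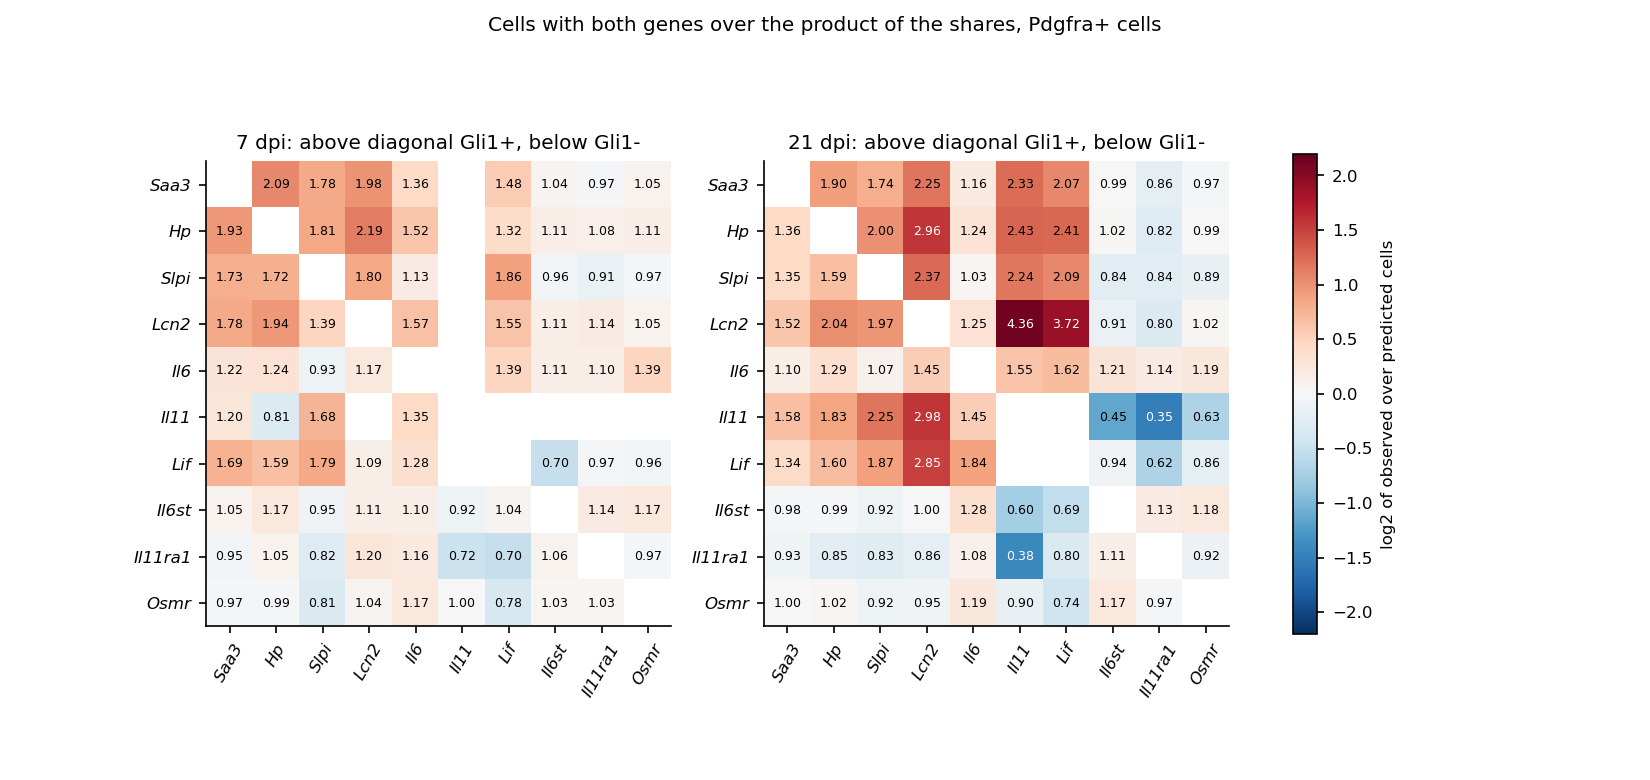
Ratio of observed to predicted co-detection for each pair of members in *Pdgfra* cells thinned to 2000 UMIs at 7 dpi and at 21 dpi, with *Gli1*+ above and *Gli1*- below the diagonal and pairs under the minimum left blank. Numbers are the ratios and colours their log2. The 4 effectors form a block above 1 at both times, and *Il11* with *Il11ra1* lies under 1 at 21 dpi.

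By the same ratio, taken as the smaller of the *Gli1*+ and *Gli1*- values, the genes most like *Saa3* at 21 dpi among 5178 were *Grem1* (2.35 and 1.72), a BMP antagonist, *Tnfsf11* (2.48 and 1.61), which encodes RANKL, *Ereg* (2.24 and 1.57), an EGF receptor ligand, *Lcn2* (2.25 and 1.52) and *Kcnj15* (1.58 and 1.52), a potassium channel gene. The smaller value was the *Gli1*- one for all 5, so that this order rests on the *Gli1*- share with a *Saa3* UMI that was read as background. The median over all genes was 0.997 in both libraries. *Hp* ranked 16, *Slpi* 17 and *Il6* 209. For *Il6* at 7 dpi, among 5173 genes, the list was led by *Rnd1* (1.78 and 1.58), *Adamts4* (1.53 and 1.80), a protease of aggrecan, *Gm16685* (1.64 and 1.49), *Ptx3* (1.49 and 1.46) and *Tnfaip2* (1.56 and 1.45), with medians of 0.987 and 0.978. *Hp* ranked 41 and *Saa3* 55 in that list.

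Of 28 other acute-phase genes, 22 passed the minimum of UMIs. At 7 dpi 2 were at least 2-fold higher in both sorts, *Orm1* and *Ptx3*, and 3 at least 2-fold lower, *Cp*, *Itih4* and *Mt2*, while at 21 dpi *Il1rn* and *Orm1* were higher and none lower. Among all genes 8.56% were higher and 12% lower in both sorts at 7 dpi, and 5.82% and 12.8% at 21 dpi, so the both-sort counts of this list lie near those of all genes at 7 dpi. Taken by sort at 7 dpi, 5 of the 22 were higher and 6 lower in *Gli1*+ cells, beside 13.8% and 23.8% of all genes. In *Gli1*- cells 5 were higher and 8 lower, beside 15.2% and 17.7%. *Orm1*, which encodes the plasma protein orosomucoid, was at 0.718, 5.78 and 1.90 CPM in *Gli1*+ and at 0.0298, 0.260 and 2.0 CPM in *Gli1*- cells. The uninjured *Gli1*- value lies under the 0.0893 CPM that 3 counts would give there, so the *Gli1*- ratios of *Orm1* rest on very few UMIs. *Ptx3*, a pentraxin of stromal cells, was at 35.6, 289 and 202 CPM in *Gli1*+ and at 113, 346 and 213 CPM in *Gli1*- cells. *Cp*, which encodes the copper carrier ceruloplasmin, was at 186, 50.1 and 101 CPM and at 273, 72.3 and 145 CPM. The metallothionein gene *Mt2* was at 1279, 487 and 1193 CPM and at 1755, 683 and 1285 CPM, lowest at 7 dpi in both sorts. *Il1rn*, the IL-1 receptor antagonist, was at 0.387, 5.05 and 4.90 CPM and at 1.76, 2.37 and 10.3 CPM.

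Of 6 other ligand genes past the minimum, of 7 listed, *Ctf1* was at least 2-fold higher in both sorts at 7 dpi, at 1.27, 2.87 and 2.2 CPM in *Gli1*+ and at 0.833, 2.38 and 1.90 CPM in *Gli1*- cells, and none was lower in both at either time. *Osm*, the ligand of the *Osmr* chain, gave 23 UMIs over the 6 libraries. Of 5 receptor genes past the minimum, of 6 listed, all 5 were at least 2-fold lower in both sorts at 7 dpi and 4 at 21 dpi, where 12% and 12.8% of all genes were lower in both. *Lifr*, the LIF receptor, was at 127.5, 22.6 and 17.6 CPM and at 213, 29.9 and 35.7 CPM. *Il6ra*, the IL-6 receptor, was at 92.1, 25.7 and 24.3 CPM and at 116, 27.2 and 25.2 CPM, and *Cntfr* was at 26.5, 9.37 and 5.48 CPM and at 47.3, 12.7 and 5.89 CPM. *Il6ra* and *Lifr* were thus several-fold lower at times when *Il6st*, the gene of gp130, was under 2-fold lower.

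Genes downstream of the receptors are read against the same shares of all genes, 12% and 12.8% lower and 8.56% and 5.82% higher in both sorts at 7 and 21 dpi. Of 7 JAK and STAT genes, *Stat5b* and *Stat3* were 2-fold lower in both sorts at 7 dpi and *Stat5b* at 21 dpi, and none was higher. *Stat3* was at 617, 221 and 404 CPM in *Gli1*+ and at 549, 240 and 399 CPM in *Gli1*- cells. Of 14 genes of STAT3 feedback and response, 5 were lower in both sorts at 7 dpi and none at 21 dpi, and none was higher in either sort. In *Gli1*- cells alone 9 of the 14 were lower at 7 dpi and 7 at 21 dpi, where 17.7% and 18.8% of all genes were. Both counts use the uninjured *Gli1*- library, where *Junb*, *Cebpd* and *Socs3* of this list were higher than in any other. The part of that library in these counts was not tested. In *Gli1*+ cells 5 and 0 of the 14 were lower, beside 23.8% and 26% of all genes. *Socs3*, which dampens gp130 signaling, was at 1040, 476 and 875 CPM and at 2232, 635 and 617 CPM. Of 15 genes of NF-kB and upstream cytokines, *Il1rl1*, the receptor of IL-33, was higher in both sorts at both times, at 3.98, 57.9 and 71.5 CPM in *Gli1*+ cells and at 0, 49.4 and 78.8 CPM in *Gli1*- cells. *Il1a* reached 2-fold higher in both sorts only at 21 dpi, from 0 to 3.45 and 2.07 CPM, and *Tnf* was lower in both sorts then. The list thus had 1 of 15 genes higher in both sorts at 7 dpi and 2 of 15 at 21 dpi.

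Partners of the secreted members were the last list, with 9 of 10 past the minimum. Of these, 1 was higher and 2 lower in both sorts at 7 dpi and 2 higher and 1 lower at 21 dpi, beside the same shares of all genes. *Mmp9*, whose product binds lipocalin 2, was higher in both sorts at both times, at 0.442, 7.62 and 5.2 CPM and at 0.208, 3.27 and 5.65 CPM, and it is also a neutrophil marker. *Mmp2* was higher at 21 dpi, at 458, 734 and 1275 CPM and at 386, 872 and 1297 CPM. *Tlr4*, a receptor that serum amyloid A can engage, was lower at both times, at 60.4, 18.1 and 28.0 CPM and at 82.0, 21.8 and 32.2 CPM. *Elane*, the elastase that *Slpi* inhibits, gave 81 UMIs over the 6 libraries and was lower in both sorts at 7 dpi, although the interval of its *Gli1*- log2 ratio, -8.63 to 0.72, held 0.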

How the data were processed

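Single cells of 6 libraries were profiled by droplet 3' RNA sequencing. The authors deposited raw UMI counts per gene and cell barcode, which were used as counts with no normalization. The submitters' processing notes name Cell Ranger 3.1.0, STAR and mm10, whereas the matrix headers name Cell Ranger 9.0.0, so the version behind the counts is uncertain. Of 8236 to 16437 barcodes per library, those with at least 200 genes, 1000 UMIs, a log10 genes per UMI ratio of 0.7 and at most 5% mitochondrial and 5% hemoglobin UMIs were kept (the study's stated limits), and Scrublet (scanpy 1.11.5) removed 451 to 1160 predicted doublets. The 7057 to 10882 cells kept per library held 53564928 to 107887022 UMIs.

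Levels are summed UMIs per 1000000, and a ratio against 0 counts was set at a floor of 3 counts. With 1 library per condition no test was run. The members and gene lists were chosen with earlier results of these data known. All 10 members were named, with genes of pathway lists at 2-fold or more in the same direction in both sorts (20 or more UMIs over the 6 libraries, at most 4 per list, direction and time) and the 5 genes most like *Saa3* at 21 dpi and *Il6* at 7 dpi. *Saa1*, *Saa2*, *Osm* and genes named for gates or markers fall outside this rule. *Il27ra* of the receptor list, lower at both times, and *Bcl3* of the STAT3 list, lower at 7 dpi, meet it and are named only here. A result of the ligand list is not reported here. Likeness was the smaller co-detection ratio among genes found in at least 5% of thinned cells of both libraries. The ratios were checked on simulated counts that hold counting error only, so the check does not cover spread between cells or mice. In it 3.4% to 5.73% of unchanged genes reached 2-fold higher. Python 3.11.15 with numpy 2.4.6, scipy 1.17.1 and pandas 2.3.3 was used, and edgeR 4.0.16 in R 4.3.3 for TMM scaling factors. Alternatives were other scaling, filters, doublet treatment, gates, thinning depths and detection limits, and cells of 1 sex alone.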

Additional observations from a re-analysis of the deposited data

Results flagged for a closer look

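*Il6* differed in sign between the sorts, over uninjured tendon, at both times in *Pdgfra* cells. There the *Gli1*+ log2 ratio exceeded the *Gli1*- log2 ratio by 1.15 at 7 dpi and by 1.33 at 21 dpi. The difference was not tested, since each ratio compares 1 library with 1 library, and both times use the same uninjured libraries. At 21 dpi the *Gli1*- ratio of -0.12 was 0.01 with TMM scaling, 0.06 as the mean of the cells' own CPM and 0.27 over all kept cells. *Il11ra1* at 21 dpi also differed in sign, at 0.03 (-0.02 to 0.08) in *Gli1*+ and -0.54 in *Gli1*- *Pdgfra* cells. Over all kept cells at 21 dpi *Il6* was higher in both sorts (2.21 and 0.27), whereas *Osmr* (0.60 and -0.87), *Il11ra1* (0.92 and -0.38) and *Il6st* (0.13 and -0.50) differed in sign. Sex and sort differ together in the uninjured libraries. The uninjured *Gli1*- cells were also the shallowest, at a median of 5944 UMIs, and the part of depth in this value was not tested.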

How the results depend on the processing

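The counts of members higher than in uninjured tendon stayed within 1.5 times the reported value under the alternatives run. At 2-fold or more they were 5 or 6 (*Gli1*+ 7 dpi), 6 or 7 (*Gli1*+ 21 dpi), 5 (*Gli1*- 7 dpi) and 6 (*Gli1*- 21 dpi). With the limit set at 1.5-fold or 4-fold instead, the *Gli1*+ counts were 7 or 4 at 7 dpi and 7 or 5 at 21 dpi, and the *Gli1*- counts stayed at 5 and 6. Over all kept cells the *Gli1*+ 7 dpi ratio of *Lcn2* reversed to -0.30. In the 316 *Pdgfra* cells left there without 3 markers of another list that of *Il11* reversed to -0.21, on very few UMIs. In the same 316 cells the ratio of *Il11ra1*, reported as -0.14, also changed sign. *Saa3* at 7 dpi in *Gli1*+ cells was 9.62 in cells with Y-linked UMIs alone, on 2 UMIs in 410 uninjured cells, and *Slpi* over all kept cells was 3.48 and 5.79 in *Gli1*+ libraries at 7 and 21 dpi. TMM factors ran from 0.909 to 1.18 and raised the *Gli1*+ ratios more at 21 dpi (*Il6st* from -0.51 to -0.13) than at 7 dpi (from -0.29 to -0.06). The causes were not tested. Co-detection of *Il6st* with *Il11ra1* in *Gli1*+ cells at 7 dpi was 0.934 without cells of another list. With no thinning, ratios under 1 turned above it for *Lif* with *Il6st* (1.15) in *Gli1*+ cells at 7 dpi. They did so in *Gli1*+ cells at 21 dpi for *Il11* with *Il6st* (1.03) and *Osmr* (1.19), *Slpi* with *Il6st* (1.04) and *Il11ra1* (1.01), and *Saa3* with *Il11ra1* (1.01). In *Gli1*- cells at 7 dpi they did so for *Il11ra1* with *Lif* (1.04) and *Slpi* (1.04) and for *Slpi* with *Osmr* (1.12). At 21 dpi they did so for *Il11ra1* with *Hp* (1.02), *Lcn2*, *Saa3* and *Slpi* (1.01 each) and for *Il11* with *Il6st* (1.02). Cells with *Xist* alone could not give *Gli1*+ 7 dpi and *Gli1*- comparisons, nor cells with Y-linked UMIs alone the 21 dpi ones, with under 50 cells. No paired analysis was possible because the conditions compared share fewer than 2 replicate numbers, with 1 library each, and their values come from no test. Depth limits the uninjured values of members with few UMIs.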
